A study of Mus musculus with 8 samples.

Results

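Expression of 37 genes of the TGF-beta and BMP pathway was compared in 4 mouse models of endometrial cancer, named TPM, TPMCa, TPMR1 and TPK. The genes were chosen by symbol as ligands, receptors, Smad proteins, Id targets, secreted antagonists and a pseudoreceptor of the pathway. All 37 were among the 24419 gene symbols of the count table, and all 37 passed the filter on low counts, which kept 15875 genes. RNA was sequenced as 8 bulk libraries, 2 per model, and the study describes the source as tumor tissue from 2 mice per model, whereas the labels speak of tumor organoids. All models began as uterus organoids of Cas9-expressing mice (CAG-Cas9-EGFP), carried edits that include an sgRNA against Trp53, and were transplanted into the uterus of female nude mice (BALB/cA-nu), which lack mature T cells but keep other host cells. TPM also overexpressed Myc cDNA. TPMCa, called TPMPik3ca in the labels, added Pik3ca E545K cDNA to TPM, and TPMR1, called TPMPik3r1, added an sgRNA against Pik3r1. TPK carried another cDNA in place of Myc. The organoid medium of all models held A83-01, an inhibitor of TGF-beta type I receptors, and noggin, a secreted BMP antagonist, before the organoids were transplanted. Whether the sequenced samples were in such a medium is not settled, because the study and the labels differ on their source.

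Levels are given as CPM, the counts of a gene scaled to a common library size by the TMM method, which adjusts each library for its composition. Total counts lay between 15748396 and 26943611, so that 3 counts, taken as the floor, equaled 0.116 to 0.198 CPM, a limit that covers counting error only. The edited genes were still transcribed. Trp53 lay at 106 to 131 CPM in TPM and at 33.2 to 78.5 CPM in the other models, and Pik3r1 at 51.3 to 101 CPM in TPMR1 against 78.1 to 188 CPM in the others, a level that does not test whether an edit disrupted the protein. Myc lay at 324 to 3080 CPM in the models that overexpressed it and at 92.8 to 154 CPM in TPK. The cell types in the libraries differed between models. The summed level of 6 general epithelial markers (Epcam, Cdh1 and keratins) was 2940 to 5500 CPM in TPM and 3240 to 4960 CPM in TPK, but 23.7 to 73.3 CPM in TPMCa and 6.47 to 27.4 CPM in TPMR1, so the defining markers of epithelium were near absent from both. The 5 squamous markers summed to 3190 to 14800 CPM in TPM and TPK and to at most 11.7 CPM in TPMCa and TPMR1. Replicate 1 of TPMR1 stood apart: its 7 markers of ovarian granulosa and steroid-making cells summed to 5140 CPM, against 632 CPM in replicate 2 and 13.4 to 36.2 CPM elsewhere. Most of this sum was Cyp11a1, at 3770 CPM in replicate 1 and 182 CPM in replicate 2, and Nr5a1 and Star were also higher in replicate 1. Foxl2, Amh, Inha and Gata4 were lower in replicate 1 than in replicate 2, with Foxl2 at 0.31 against 33.1 CPM and Gata4 at 137 against 183 CPM. The 6 fibroblast markers summed to 876 CPM in replicate 1, against 2410 to 16600 CPM elsewhere.

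TGF-beta and BMP ligands bind pairs of type I and type II receptor kinases, which phosphorylate receptor Smads. Smad2 and Smad3 carry the TGF-beta and activin signal, Smad1, Smad5 and Smad9 carry the BMP signal, and both groups enter the nucleus with Smad4. Smad6 and Smad7 feed back on the receptors, the Id genes are classical BMP targets, and secreted antagonists such as noggin, gremlin and chordin hold BMPs away from their receptors. In the uterus the pathway is known for its part in the cycling of the endometrium and in pregnancy, and in epithelial tumors for growth arrest and for changes toward a mesenchymal state.

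Of the 37 members, 25 had a promoter in the RefSeq table of GRCm38.p6, the build that mm10 names. The 250 bases before the start are given for Acvr1b, Smad9 and Id4, which differed between models, and for Id2 and Id3, whose levels were ordered differently from those of Id4. All are written in the direction of transcription, and capitals mark the GC-rich BMP-response letters GGCGCC and GGAGCC, on either strand (GGCTCC is the latter read from the other strand). The window of Acvr1b is chr15:101173822-101174071 (+), of Smad9 chr3:54755332-54755581 (+), of Id4 chr13:48260866-48261115 (+), of Id2 chr12:25096093-25096342 (-) and of Id3 chr4:136143572-136143821 (+). These starts are those of RefSeq. In GENCODE M21, Id2 and Id3 begin further upstream, so that their windows lie inside these genes. The last bases of the Acvr1b window lie inside Acvr1b as well.
Acvr1b: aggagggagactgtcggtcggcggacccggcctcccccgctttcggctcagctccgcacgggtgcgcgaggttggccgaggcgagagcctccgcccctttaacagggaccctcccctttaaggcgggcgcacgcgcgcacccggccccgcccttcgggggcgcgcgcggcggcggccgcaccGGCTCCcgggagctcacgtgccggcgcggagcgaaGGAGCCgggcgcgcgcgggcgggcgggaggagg
Smad9: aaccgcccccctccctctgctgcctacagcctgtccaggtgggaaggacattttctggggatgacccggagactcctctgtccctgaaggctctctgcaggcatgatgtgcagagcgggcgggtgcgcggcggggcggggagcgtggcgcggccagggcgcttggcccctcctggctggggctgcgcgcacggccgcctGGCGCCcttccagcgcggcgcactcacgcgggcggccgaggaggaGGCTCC
Id4: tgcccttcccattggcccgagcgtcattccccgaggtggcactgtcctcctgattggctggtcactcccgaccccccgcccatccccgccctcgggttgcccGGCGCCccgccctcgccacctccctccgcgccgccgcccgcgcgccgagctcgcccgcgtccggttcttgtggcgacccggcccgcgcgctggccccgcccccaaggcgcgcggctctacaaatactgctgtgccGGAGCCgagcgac
Id2: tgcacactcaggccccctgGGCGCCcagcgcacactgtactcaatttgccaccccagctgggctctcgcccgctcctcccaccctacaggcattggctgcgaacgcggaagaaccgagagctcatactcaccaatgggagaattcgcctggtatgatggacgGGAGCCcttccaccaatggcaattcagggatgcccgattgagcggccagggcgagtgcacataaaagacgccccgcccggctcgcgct
Id3: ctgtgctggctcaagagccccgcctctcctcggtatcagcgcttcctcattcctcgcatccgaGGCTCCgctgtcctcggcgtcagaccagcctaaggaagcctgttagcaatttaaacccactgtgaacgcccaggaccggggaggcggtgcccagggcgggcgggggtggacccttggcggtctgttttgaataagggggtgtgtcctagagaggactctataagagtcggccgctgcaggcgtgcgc
GGCGCC was found in windows of 10 of the 25 members and in 9.59% of all 32851 windows of this length. GGAGCC was found in windows of 15 members and in 26% of all windows. The Smad-binding letters GTCTAGAC were in no member's window and in 0.167% of all windows, and CAGACA was in windows of 4 members and in 17.1% of all windows. GGCGCC and GTCTAGAC read the same on both strands, and neither of the GC-rich pair contains the other. A member with several windows was counted if any of them held the letters, whereas the percentages are of single windows. The shared GC content of promoters was not taken into account, and a match is a description of letters only.

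The study asked how alterations of the PI3K pathway and the introduced cDNA changed the tumors, and 6 comparisons were made, which share libraries and are therefore not independent. Of all the genes tested, 8.89% passed an adjusted p of 0.05 between TPM and the mean of TPMCa and TPMR1, and 3 of the 37 members did so, Acvr1b, Bmp7 and Id4, all lower in that mean. Between TPMCa and TPM, 1 member passed (Bmp7, lower), against 3.48% of all genes, and between TPMR1 and TPM also 1 (Acvr1b, lower), against 5.58%. TPK differed from the mean of TPMCa and TPMR1 in 3 members, Acvr1b and Id4 higher and Smad9 lower, against 14.4% of all genes. The members thus passed at 8.11, 2.7, 2.7 and 8.11%, shares near or below those of all genes. Most of all genes called against TPM were lower too, 1181 against 230 higher in the mean of TPMCa and TPMR1. The counts were 479 lower and 74 higher in TPMCa alone, and 714 and 172 in TPMR1 alone. In TPK, 644 genes were lower and 1643 higher than in the mean of TPMCa and TPMR1. The median log2 fold change of the members was -0.08, 0.48, -0.14 and -0.19 in these comparisons, and that of all genes between -0.01 and 0.03. These calls come from the quasi-likelihood test of edgeR with Benjamini-Hochberg adjustment over all genes tested, and the 4 members are Acvr1b, Bmp7, Id4 and Smad9.

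No member passed between TPK and TPM or between TPMR1 and TPMCa, where edgeR called 0% of all genes. At an unadjusted p under 0.05, edgeR gave 4 members between TPK and TPM, against 7.17% of all genes, and 6 between TPMR1 and TPMCa, against 11.8%. The Wald test of DESeq2 called more. It gave 7 members between TPM and the mean of TPMCa and TPMR1 (19.6% of all genes), 7 between TPMCa and TPM (16%), 6 between TPMR1 and TPM (18.1%), 7 between TPK and the mean of TPMCa and TPMR1 (28.4%), 1 between TPK and TPM (1.64%) and 5 between TPMR1 and TPMCa (4.96%).

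**Figure D1:**
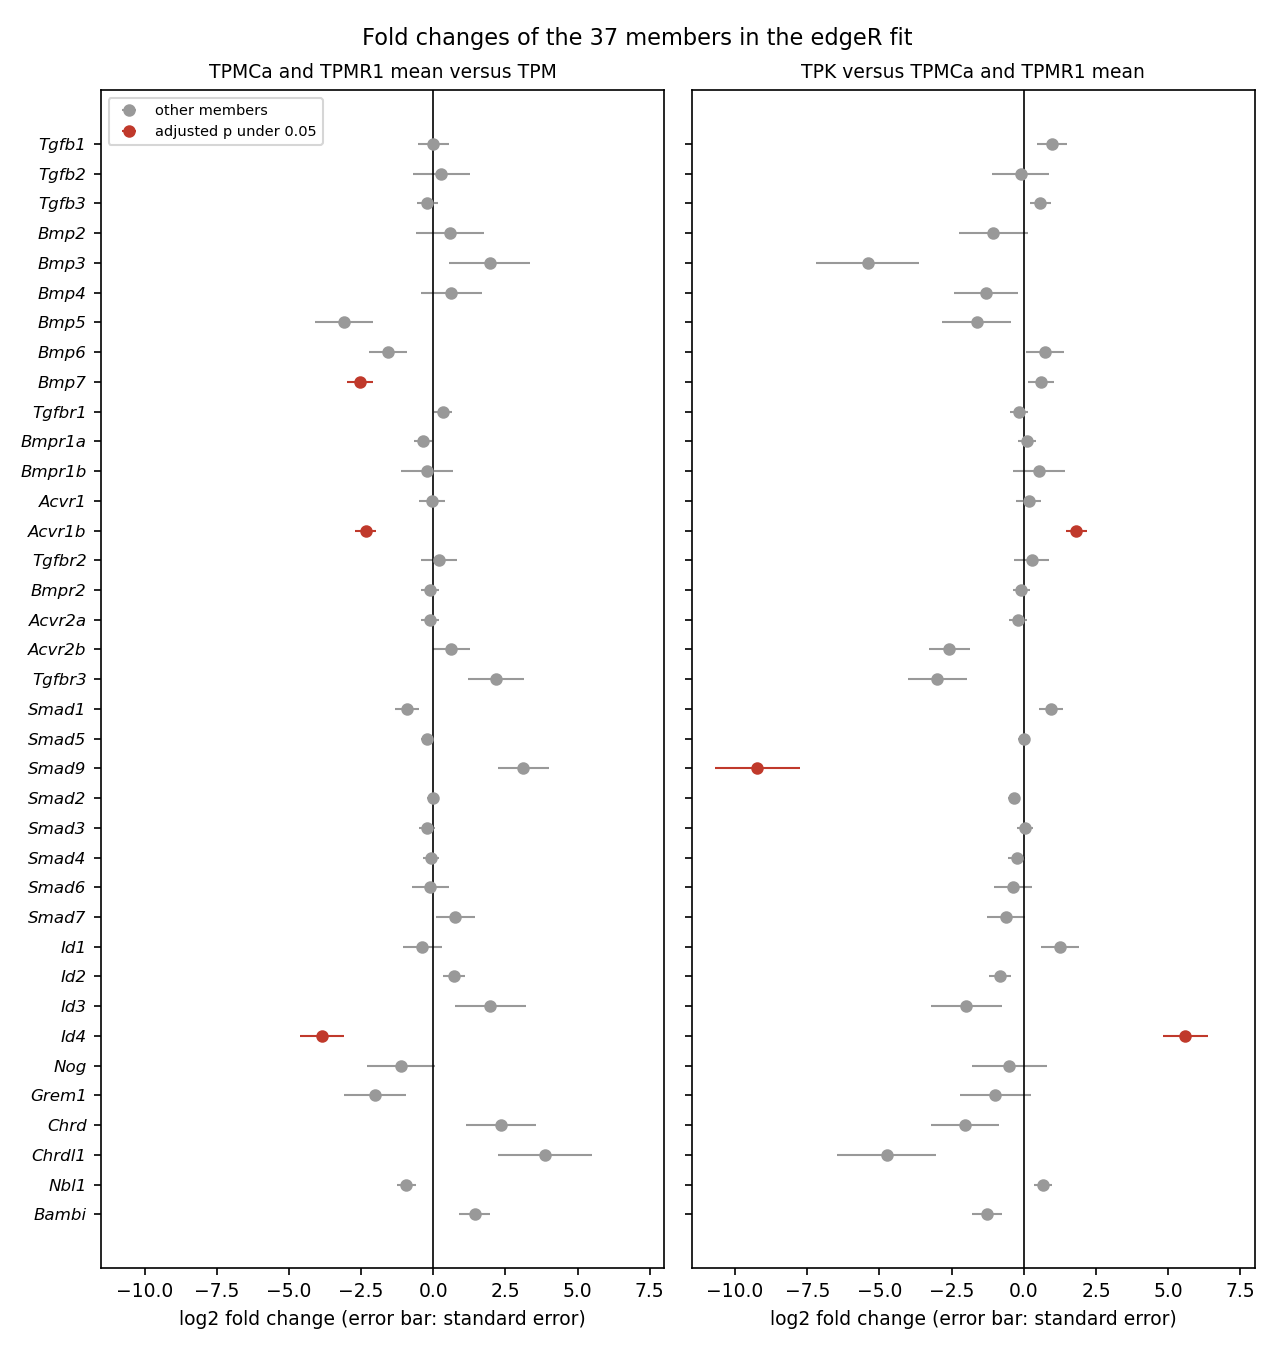
Log2 fold change of the 37 members (points, with standard errors as bars) between the mean of TPMCa and TPMR1 and TPM (left) and between TPK and that mean (right), from the edgeR fit of 8 libraries. Red points passed an adjusted p of 0.05: Acvr1b, Bmp7 and Id4 on the left, Acvr1b, Id4 and Smad9 on the right, where the fitted value of Smad9 depends on the prior count because TPK had 0 counts.

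Acvr1b, the type I receptor of activin and nodal (ALK4, chr15:101174067-101213684), lay at 92.8 and 80.3 CPM in TPM and at 55.8 and 64.5 CPM in TPK. It lay at 29.1 and 16.1 CPM in TPMCa and at 8.21 and 17.6 CPM in TPMR1. Every TPM and TPK library was thus above every TPMCa and TPMR1 library. Acvr1b fell 5.07-fold from TPM to the mean of TPMCa and TPMR1 (log2 fold change -2.34 ± 0.37, standard error, n = 2 libraries per model, edgeR adjusted p = 0.0125). It fell 6.71-fold in TPMR1 alone (edgeR adjusted p = 0.0272), and in TPMCa the log2 fold change was -1.94 ± 0.46 (edgeR adjusted p = 0.0733). In TPK it was 3.53-fold higher than in the mean of TPMCa and TPMR1 (log2 fold change 1.82 ± 0.37, edgeR adjusted p = 0.0228). The general epithelial markers moved with this gene, from 2940 to 5500 CPM in TPM and 3240 to 4960 CPM in TPK to at most 73.3 CPM, and their part in the result was not tested. In bulk tissue, fewer cells of a type and less RNA per cell cannot be told apart. The fall against TPM missed the threshold without TPM replicate 1 (edgeR adjusted p = 0.0939) or TPM replicate 2 (0.0571). Without TPMR1 replicate 2 the log2 fold change in TPMR1 alone was -3.4. The fall in TPMR1 alone missed it without either TPM library (0.127 and 0.0883) or either TPK library (0.0669 and 0.0674), and the difference from TPK without TPK replicate 1 (0.0997), TPK replicate 2 (0.16), TPM replicate 1 (0.0562), TPM replicate 2 (0.0536) or TPMCa replicate 2 (0.0607).

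Bmp7, a BMP ligand of many epithelia (chr2:172868012-172940321), lay at 43.7 and 46.9 CPM in TPM and at 57.7 and 20.2 CPM in TPMR1. It lay at 1.58 and 1.56 CPM in TPMCa, which is 25 and 28 counts. TPK lay between, at 8.97 and 14.4 CPM. The TPMCa libraries were thus below every other library, whereas the TPMR1 and TPM ranges overlapped. Bmp7 fell 28.7-fold from TPM to TPMCa (log2 fold change -4.84 ± 0.62, n = 2 libraries per model, edgeR adjusted p = 0.0153). Between TPMR1 and TPM its log2 fold change was -0.22 ± 0.52 (edgeR adjusted p = 0.846). The call against the mean of TPMCa and TPMR1 (log2 fold change -2.53 ± 0.44, edgeR adjusted p = 0.0175) therefore averaged unlike models. Compared directly, TPMR1 was above TPMCa by 4.63 ± 0.61 on the log2 scale, with an unadjusted p of 0.000161 and an adjusted p of 0.287 from edgeR, and DESeq2 called this difference. The general epithelial markers summed to 23.7 to 73.3 CPM in TPMCa and 6.47 to 27.4 CPM in TPMR1. The granulosa and steroid-making markers summed to 23.6 to 36.2 CPM in TPMCa and to 5140 and 632 CPM in TPMR1. Within TPMR1, Bmp7, Cyp11a1, Nr5a1 and Star were higher in replicate 1, whereas Foxl2, Amh, Inha and Gata4 were higher in replicate 2. The part of these cells was not tested. The fall in TPMCa missed the threshold without TPM replicate 1 (edgeR adjusted p = 0.0693), TPM replicate 2 (0.0511), TPMCa replicate 1 (0.111) or TPMCa replicate 2 (0.109), and that against the mean without the same libraries (0.101, 0.0952, 0.0758 and 0.069).

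Id4, a member of the Id family of helix-loop-helix proteins that block other transcription factors (chr13:48261228-48266026), lay at 21.7 and 34.7 CPM in TPK and at 7.83 and 8.92 CPM in TPM. It lay at 0.633 and 0.779 CPM in TPMCa and at 0.0774 and 0.889 CPM in TPMR1, the lowest value being 2 counts and under the floor. Every TPK library was above both TPM libraries and these above all TPMCa and TPMR1 libraries, while TPMCa lay within the range of TPMR1. Id4 fell 14.4-fold from TPM to the mean of TPMCa and TPMR1 (log2 fold change -3.85 ± 0.75, n = 2 libraries per model, edgeR adjusted p = 0.0263). It was 48.4-fold higher in TPK than in that mean (log2 fold change 5.6 ± 0.78, edgeR adjusted p = 0.00718). Between TPK and TPM the log2 fold change was 1.75 ± 0.88 (edgeR adjusted p = 0.721). The 5 squamous markers were also high in TPK and TPM, at 10900 to 14800 CPM in TPK, 3190 to 12400 CPM in TPM and at most 11.7 CPM in TPMCa and TPMR1, and their part in the result was not tested. Exons of Id4 overlap those of the antisense genes A330033J07Rik and Gm49291. Because the use of strand in counting is not given in the sources used here, reads from the overlap cannot be assigned with certainty among the 3 genes. Without TPMR1 replicate 2 the log2 fold changes were -5.09 and 6.84. The higher level in TPK missed the threshold without TPK replicate 2 (edgeR adjusted p = 0.0551). The fall against TPM missed it without TPM replicate 1 (0.121), TPM replicate 2 (0.114), TPMCa replicate 1 (0.109), TPMCa replicate 2 (0.0935), TPK replicate 1 (0.0642) or TPK replicate 2 (0.0689).

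Smad9, the BMP-branch receptor Smad also known as Smad8 (chr3:54755582-54801257), had 0 counts in both TPK libraries. It lay at 11.8 and 2.84 CPM in TPMCa, at 2.21 and 2.50 CPM in TPMR1 and at 0.602 and 0.343 CPM in TPM. The order was thus TPMCa, TPMR1, TPM and TPK, with no overlap between any of them. Taken against 3 counts in each TPK library, or 0.185 CPM on average, Smad9 was at least 26.3-fold lower in TPK than in the mean of TPMCa and TPMR1 (edgeR adjusted p = 0.0155), at least 39.8-fold lower than in TPMCa and at least 12.7-fold lower than in TPMR1. Without TPMCa replicate 1 the bounds against the mean and against TPMCa were 14.1-fold and 15.4-fold, and without TPMCa replicate 2 they were 38.4-fold and 64.1-fold. Between the mean of TPMCa and TPMR1 and TPM, its log2 fold change was 3.12 ± 0.89 (edgeR adjusted p = 0.0989). The summed level of 5 endothelial markers was also higher in TPMCa and TPMR1 than in the other models, at 367 to 482 CPM in TPMCa, 146 to 599 CPM in TPMR1, 91.8 to 109 CPM in TPM and 50.2 to 141 CPM in TPK. Cdh5, Kdr and Emcn were each higher in every TPMCa and TPMR1 library than in any TPM or TPK library. Pecam1 and Tek overlapped between these models, with Tek at 2.87 and 4.56 CPM in TPMR1 and 4.21 and 4.12 CPM in TPM. The part of these cells was not tested. The call missed the threshold without TPK replicate 1 (edgeR adjusted p = 0.0728) or TPK replicate 2 (0.0875).

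**Figure D2:**
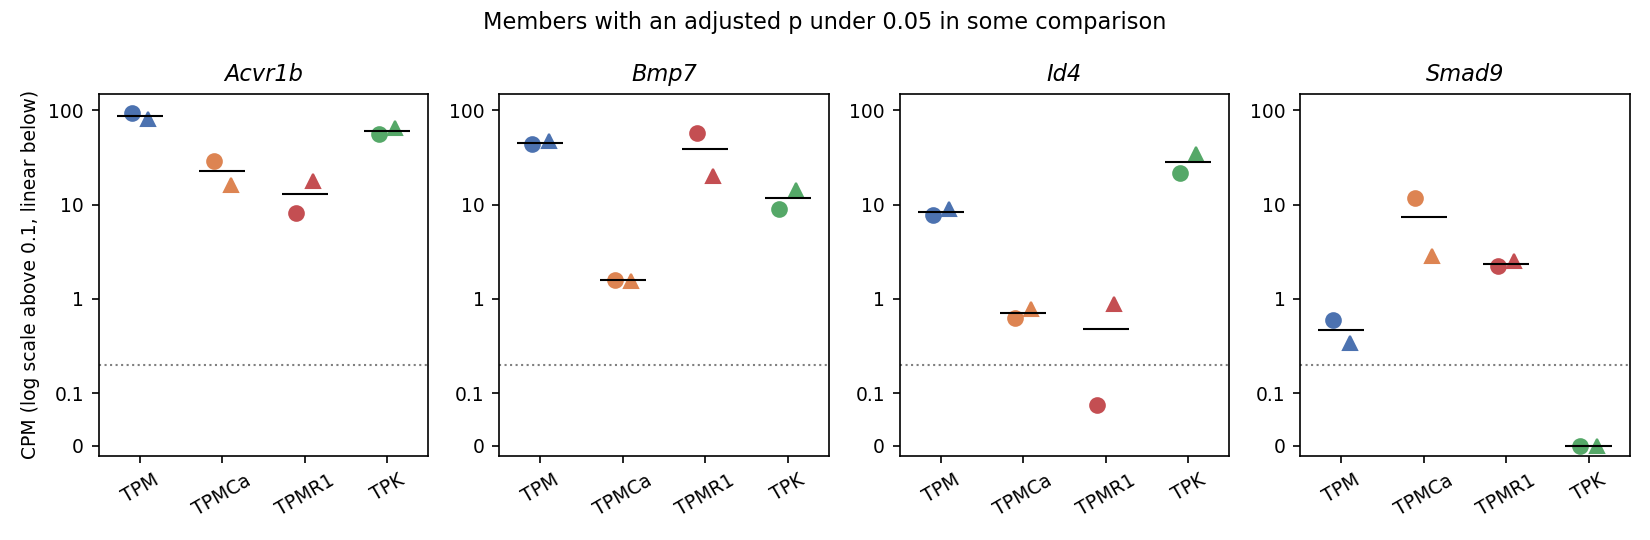
Levels in CPM of Acvr1b, Bmp7, Id4 and Smad9 in each library, on a log axis that is linear below 0.1 CPM, with replicate 1 as a circle, replicate 2 as a triangle, the mean of a model as a black line and 0.198 CPM, the highest floor of any library, as a dotted line. Acvr1b and Id4 are high in TPM and TPK, Bmp7 is lowest in TPMCa at 1.58 and 1.56 CPM, and Smad9 is at 0 in TPK.

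Among the TGF-beta ligands, Tgfb1, the most widely made form, lay at 113 and 96.2 CPM in TPK and at 55.3 and 50.7 CPM in TPM. It lay at 53.7 and 148 CPM in TPMCa and at 13.7 and 42.5 CPM in TPMR1. The TPMR1 libraries were the lowest, but the log2 fold change against TPM was -0.92 ± 0.63 (edgeR adjusted p = 0.438). Tgfb3 was the most even of these ligands, between 20.4 and 72.9 CPM, and Tgfb2 lay between 1.94 and 50.5 CPM, with its lowest value in TPMR1 replicate 1. Per kilobase of exon, Tgfb2 made up 3.68 to 27.4% of the summed TGF-beta ligand CPM, and Tgfb1 and Tgfb3 the rest.

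The leading BMP ligand differed between models and, in TPMCa and TPMR1, between replicates. Per kilobase of exon, Bmp7 made up 40.3 and 51.1% of the summed BMP ligand CPM in TPM and 2.88 and 5.06% in TPMCa. In TPMR1 its share was 64 and 30.4%, and in replicate 2 Bmp4 led with 36.4%. Bmp6 held the most in TPK, with 43.1 and 46%. In TPMCa the leading ligand was Bmp4 in replicate 1 (58.8%) and Bmp2 in replicate 2 (37.8%), so the replicates of this model did not share one either. The sum over the 6 ligands was 27 and 22.8 CPM per kilobase in TPM, 13.7 and 7.66 in TPMCa, 22.4 and 16.5 in TPMR1 and 7.72 and 11.4 in TPK. Bmp6, a ligand that also controls iron uptake through hepcidin, lay at 41.4 and 18.4 CPM in TPM and at 8.61 and 2.50 CPM in TPMCa, with a log2 fold change of -2.43 ± 0.83 (edgeR adjusted p = 0.158). DESeq2 called this difference. Exons of Bmp6 overlap those of Txndc5 on the other strand. Bmp5 lay at 1.26 and 17.3 CPM in TPM, at 7.41 and 4.51 CPM in TPMCa and at or under 0.527 CPM in TPMR1 and TPK, so that the TPM libraries were on either side of TPMCa. No edgeR comparison of all 8 libraries called Bmp5. DESeq2 called it between TPMR1 and TPM, TPK and TPM, TPMR1 and TPMCa, and TPM and the mean of TPMCa and TPMR1. Bmp2, Bmp3 and Bmp4 lay between 0.0659 and 18.1 CPM, and none passed in the edgeR fit of all 8 libraries. Bmp3 passed between TPK and the mean of TPMCa and TPMR1 in DESeq2 and in edgeR without TPMR1 replicate 1.

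**Figure D3:**
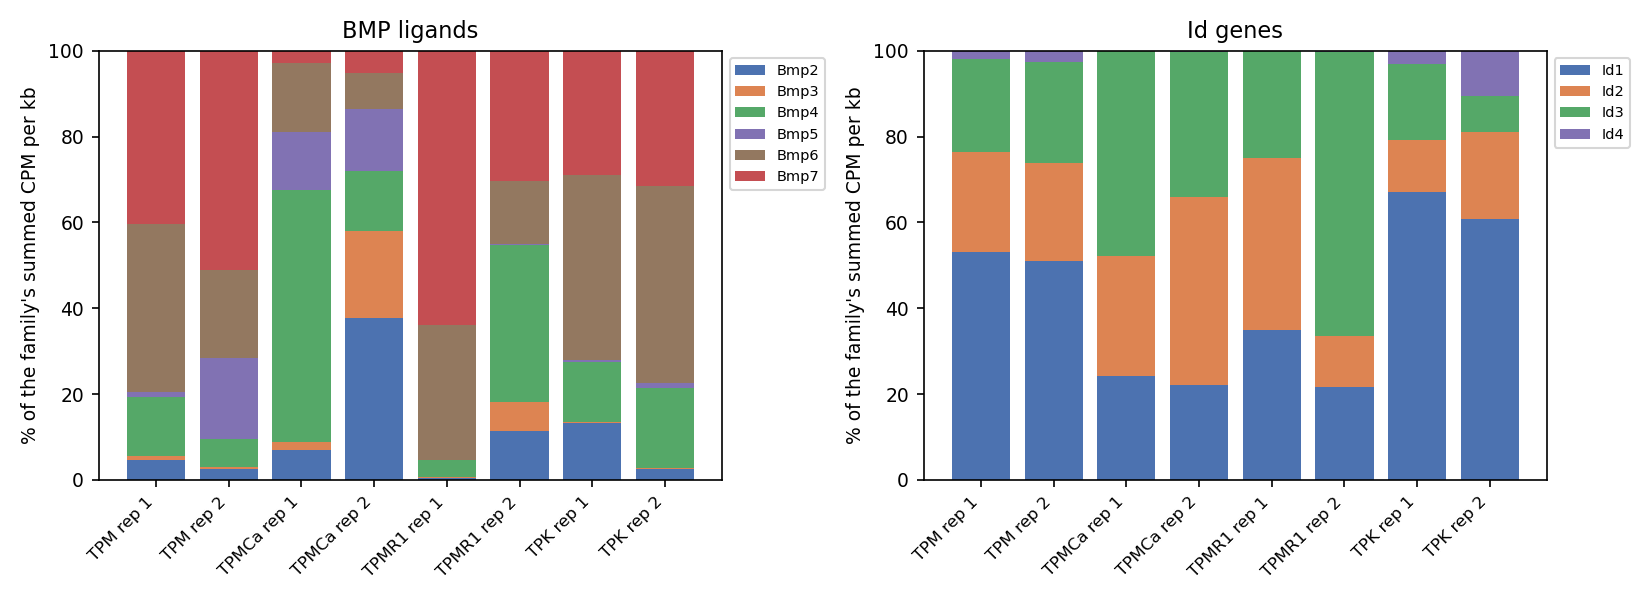
Share of each gene in the summed CPM per kilobase of exon of the 6 BMP ligands (left) and the 4 Id genes (right), in percent, with 1 bar per library. Bmp7 makes up 40.3 and 51.1% of the ligands in TPM and 2.88 and 5.06% in TPMCa, and Id4 2.02 to 10.5% of the Id genes in TPM and TPK and at most 0.167% in TPMCa and TPMR1.

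Among the other type I receptors, Bmpr1a (ALK3) and Tgfbr1 (ALK5) lay at 61.3 to 119 CPM and 35 to 99.2 CPM. Acvr1 (ALK2) lay between 25.4 and 71.6 CPM, with its highest value in TPMR1 replicate 1. Bmpr1b (ALK6) lay between 7.67 and 28.1 CPM in 7 libraries and at 0.542 CPM in TPMR1 replicate 1. None of these passed in the edgeR fit of all 8 libraries, although Bmpr1b passed in 3 comparisons without TPMR1 replicate 2. Between TPM and the mean of TPMCa and TPMR1 their log2 fold changes lay between -0.34 and 0.33. Per kilobase of exon, Acvr1b was the highest of the 5 type I receptors in TPM, at 21 and 18.2, above Bmpr1a at 18.8 and 14.4. In TPMCa it lay at 6.58 and 3.64, below Bmpr1a at 16 and 9.65 and Tgfbr1 at 10.4 and 15.2.

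Of the type II receptors, Tgfbr2, which binds TGF-beta itself, lay at 139 and 138 CPM in TPK, 107 and 93 CPM in TPM, 133 and 278 CPM in TPMCa and 20.9 and 108 CPM in TPMR1. Bmpr2 lay between 73.3 and 152 CPM and Acvr2a between 20.1 and 35.3 CPM, both with less than 3-fold between their extremes. Acvr2b, an activin type II receptor, lay at 1.26 and 0.923 CPM in TPK, below all other libraries, which were at 2.17 to 9 CPM. Its log2 fold change between TPK and the mean of TPMCa and TPMR1 was -2.58 ± 0.71 (edgeR adjusted p = 0.0557), and DESeq2 called it. Tgfbr3, betaglycan, a co-receptor that presents TGF-beta2 and inhibin, lay at 498 CPM in TPMR1 replicate 1 and 82.8 CPM in replicate 2. It lay at 74.7 and 72.7 CPM in TPMCa, 23.7 and 41.9 CPM in TPM and 31.9 and 4.88 CPM in TPK. Its log2 fold change between TPMR1 and TPM was 3.15 ± 1.08 (edgeR adjusted p = 0.146). It passed in DESeq2 and in edgeR without TPMR1 replicate 2. The latter fit leaves as the sole TPMR1 sample the library with 5140 CPM of granulosa and steroid-making markers, most of it Cyp11a1. The part of those cells was not tested.

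The signal-carrying Smads other than Smad9 were nearly level. Smad2 lay between 48.3 and 76.4 CPM, Smad3 between 41 and 72.7 CPM, Smad4 between 83.9 and 146 CPM and Smad5 between 85.8 and 127 CPM. Their log2 fold changes between TPM and the mean of TPMCa and TPMR1 were -0.02 ± 0.20, -0.22 ± 0.27, -0.08 ± 0.27 and -0.22 ± 0.21. Smad1 varied more, at 118 and 79.8 CPM in TPK, 71.9 and 126 CPM in TPM, 57.1 and 65.9 CPM in TPMCa and 24.8 and 63.3 CPM in TPMR1, with a log2 fold change of -0.92 ± 0.42 (edgeR adjusted p = 0.229). Per kilobase of exon, Smad9 was at most 8.87% of the 3 BMP-branch Smads, the value of TPMCa replicate 1, and 0% in TPK. Both inhibitory Smads had their highest value in TPMCa replicate 1 and their lowest in TPMR1 replicate 1. Smad7 lay at 122 and 62.7 CPM in TPMCa, 32.1 to 44 CPM in TPM and TPK, and 11.5 and 66.8 CPM in TPMR1. Smad6 lay at 31.3 and 15.8 CPM in TPMCa and between 3.64 and 19.2 CPM elsewhere. Neither passed in any edgeR comparison of all 8 libraries.

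The Id genes were ordered differently over the models. Id1 lay at 150 and 60.5 CPM in TPK, 62.1 and 51.1 CPM in TPM, 77.9 and 31.3 CPM in TPMCa and 12.3 and 57 CPM in TPMR1. Id2 was highest in TPMCa, at 188 and 130 CPM, and lay at 57 and 48.6 CPM in TPM, 29.7 and 66.8 CPM in TPMR1 and 56.8 and 42.2 CPM in TPK. Its log2 fold change from TPM to TPMCa was 1.59 ± 0.43 (edgeR adjusted p = 0.1), and it passed in DESeq2, in a fit of these models alone, and in edgeR without either TPMR1 library. Id3 lay at 237 and 73.6 CPM in TPMCa and at 39 and 36.3 CPM in TPM. It lay at 13.6 and 269 CPM in TPMR1 and at 61.7 and 12.8 CPM in TPK, the replicates of which were thus far apart. In TPMCa, where Id2 and Id3 were high, Id4 lay at 0.633 and 0.779 CPM. Per kilobase of exon, Id4 was 2.02 to 10.5% of the summed Id signal in TPM and TPK and 0.0594 to 0.167% in TPMCa and TPMR1. Id1 held the most in TPM and TPK, with 50.9 to 67%.

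Of the secreted antagonists, Nbl1 (DAN) was the most abundant per kilobase in all libraries but TPMR1 replicate 1, with 70.2 to 96.9% of the family's summed signal in those libraries. It lay at 66 and 125 CPM in TPM, 64.4 and 55.5 CPM in TPMCa, 31.8 and 52.3 CPM in TPMR1 and 79.3 CPM in both TPK libraries. Chrd, chordin, lay between 2.70 and 5.71 CPM in 7 libraries and at 133 CPM in TPMR1 replicate 1, where it made up 57.3% of the family. Its exons overlap those of Thpo on the other strand. DESeq2 called Chrd between TPMR1 and TPM and between TPMR1 and TPMCa. Chrdl1, a chordin-like antagonist on the X chromosome, lay at 47.5 and 27.7 CPM in TPMCa and at 43.6 CPM in TPMR1 replicate 2, but at 0.581 CPM in TPMR1 replicate 1. In TPM it lay at 3.25 and 0.686 CPM and in TPK at 1.26 and 0.857 CPM. Its log2 fold change from TPM to TPMCa was 4.25 ± 1.73 (edgeR adjusted p = 0.216), and it passed in DESeq2 and in edgeR without either TPMR1 library. Grem1, gremlin, lay at 8.07 and 2.35 CPM in TPM and 13.8 and 2.06 CPM in TPMCa and at or under 1.12 CPM in TPMR1 and TPK. It passed between TPMR1 and TPM and between TPMR1 and TPMCa in DESeq2, but in no edgeR comparison of all 8 libraries. Nog lay at or under 3.86 CPM in every library. Bambi, a truncated pseudoreceptor that dampens the signal, lay at 25.6 and 15.9 CPM in TPMCa, 12.9 and 21.2 CPM in TPMR1, 5.72 and 8.24 CPM in TPM and 11.1 and 4.35 CPM in TPK. Its log2 fold change between TPM and the mean of TPMCa and TPMR1 was 1.43 ± 0.54 (edgeR adjusted p = 0.164), and DESeq2 called it. Reads of Bambi may be shared with the near-copy Bambi-ps1.

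**Figure D4:**
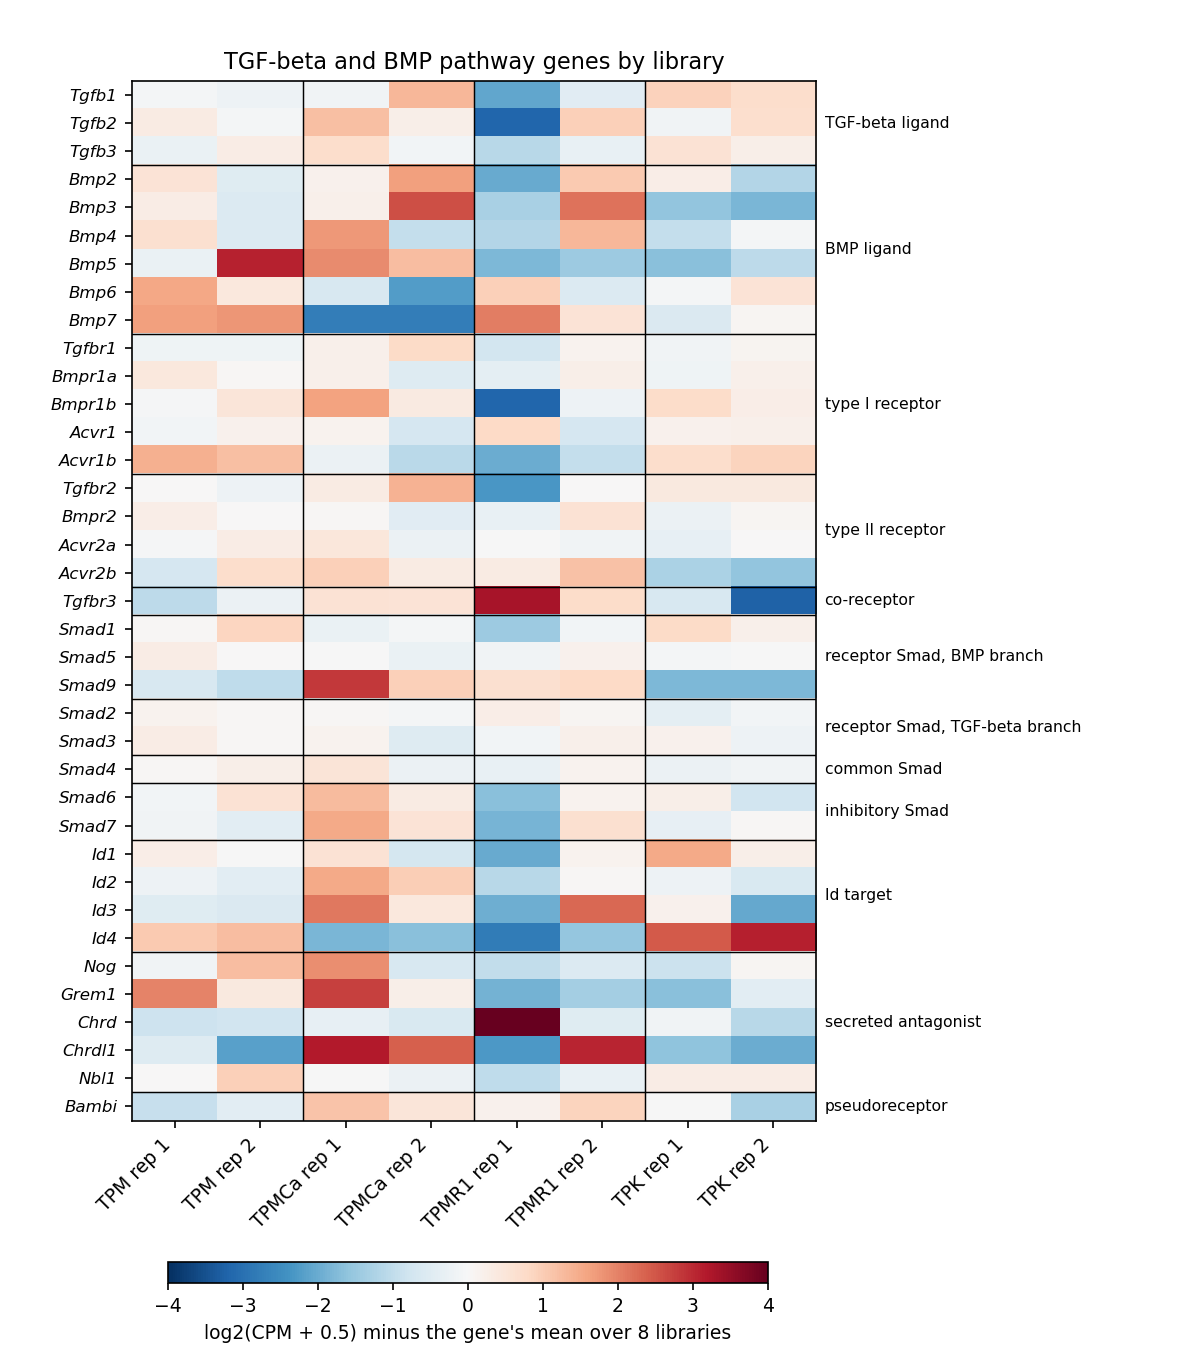
Level of each of the 37 members (rows, grouped by role) in each library (columns), as log2(CPM + 0.5) minus the mean of the gene over the 8 libraries, red above and blue below that mean. The bands of Smad2, Smad3, Smad4 and Smad5 are nearly white, those of Acvr1b and Id4 change with the model, and TPMR1 replicate 1 differs from replicate 2 in many rows.

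The TPMR1 replicates disagreed more than those of any other model. On the log2(CPM + 0.5) scale, 12 members (32.4%) were more than 4-fold apart between them, against 12.7% of all genes tested. In TPM, TPMCa and TPK, 1, 4 and 2 members were that far apart, against 2.92, 4.99 and 3.68% of all genes. Of the 12 members, 10 were lower in replicate 1, which were Tgfb2, Bmp2, Bmp3, Bmp4, Bmpr1b, Tgfbr2, Smad7, Id1, Id3 and Chrdl1. Chrdl1 was 75-fold, Tgfb2 21.7-fold and Id3 19.9-fold lower there. Chrd and Tgfbr3 were 30.7-fold and 6.01-fold higher in replicate 1. Bmp6, Bmp7 and Acvr1 were also higher in it, by 2.93-fold, 2.85-fold and 2.81-fold. In this library the fibroblast markers summed to 876 CPM against 6580 CPM in replicate 2, the smooth muscle and pericyte markers to 31.3 against 576 CPM, the endothelial markers to 146 against 599 CPM, the neutrophil markers to 12.7 against 489 CPM, the macrophage markers to 250 against 604 CPM and the granulosa and steroid-making markers to 5140 against 632 CPM. Of the last list, Foxl2, Amh, Inha and Gata4 were lower in replicate 1 than in replicate 2. The part of all these cells in the differences was not tested. Without TPMR1 replicate 1, edgeR called 4 members against TPM for the mean of TPMCa and TPMR1, 5 for TPMCa and 3 for TPMR1, and 7 between TPK and that mean, where 11.8, 9.86, 4.36 and 18.7% of all genes were called. Without TPMR1 replicate 2 the counts were 5, 5, 8 and 9, beside 12.3, 9.67, 12.3 and 18.1% of all genes, and 9 members then passed between TPMR1 and TPMCa, beside 8.24%. Acvr1b, Bmp7 and Id4 passed between TPM and the mean of TPMCa and TPMR1 with either TPMR1 library left out.

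**Figure D5:**
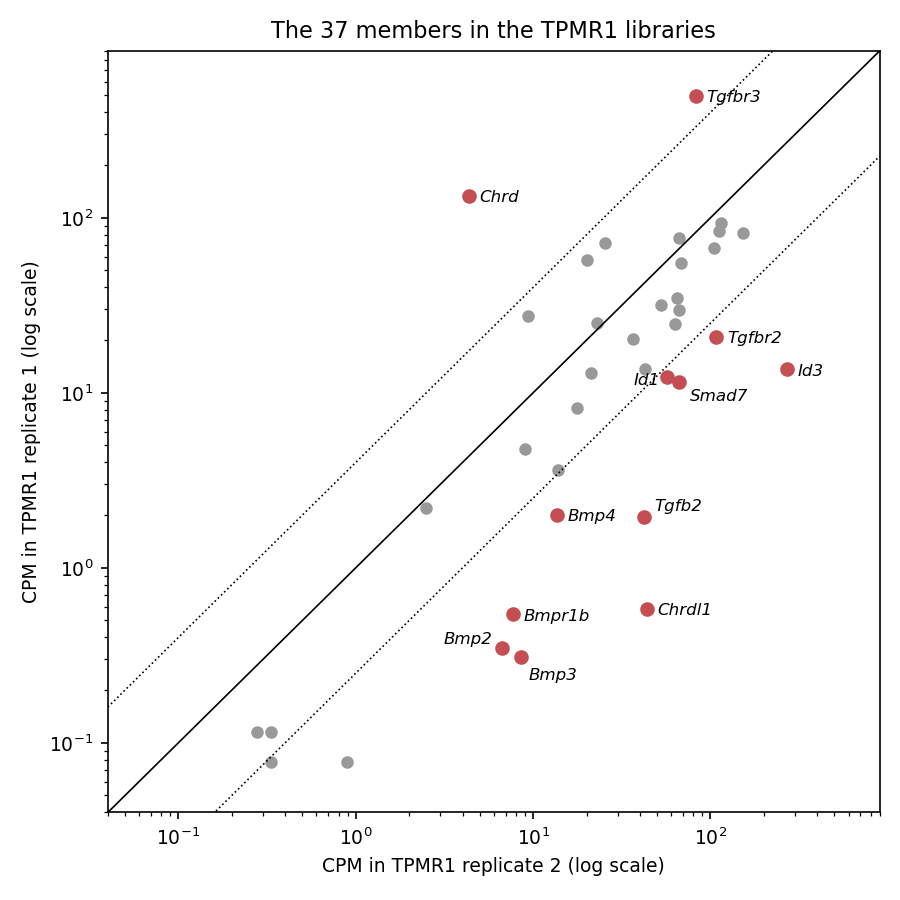
CPM of the 37 members in TPMR1 replicate 2 (x axis) and replicate 1 (y axis), both on log scales, with the line of equal levels and dotted lines at 4-fold. The 12 red points are over 4-fold apart on the log2(CPM + 0.5) scale, 10 of them below the lines and Chrd and Tgfbr3 above.

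Outside the 37 members, 88 further pathway genes were listed as other ligands, receptors, latency and activation factors, antagonists, intracellular regulators and targets, and 75 passed the filter. With edgeR, 6 were lower and 0 higher in the mean of TPMCa and TPMR1 than in TPM, where 8.89% of all genes passed. TPMCa and TPMR1 alone gave 1 and 4, all lower, beside 3.48 and 5.58% of all genes. Most of all genes called in these comparisons were lower as well. Between TPK and that mean, 10 were higher and 3 lower, where 14.4% of all genes passed. None passed between TPK and TPM or between TPMR1 and TPMCa. The medians of the 75 log2 fold changes were 0.21 for the mean of TPMCa and TPMR1 against TPM and -0.17 for TPK against that mean. Itgb6, the beta subunit of the integrin that releases TGF-beta from its latent complex on epithelium, lay at 33.8 and 18 CPM in TPM and 28.3 and 26.8 CPM in TPK and at or under 0.0557 CPM in TPMCa and TPMR1 (edgeR adjusted p = 0.00114 against TPM and 0.00103 against TPK). Sostdc1, a secreted BMP antagonist, lay at 36.4 and 18.3 CPM in TPM, at 2.34 and 0.527 CPM in TPK and at or under 0.317 CPM in TPMCa and TPMR1 (edgeR adjusted p = 0.00947 between TPM and the mean of TPMCa and TPMR1). Both epithelial marker lists were high in TPM and TPK and low in TPMCa and TPMR1, as Itgb6 was, whereas Sostdc1 was low in TPK as well. The part of these cells was not tested.

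The TGF-beta targets Cdkn2b, the cell cycle inhibitor p15, and Snai2, the transcription factor Slug, fell 5.41-fold and 4.85-fold from TPM to the mean of TPMCa and TPMR1 (edgeR adjusted p = 0.0228 and 0.0104). They were 10.9-fold and 5.35-fold higher in TPK than in that mean (0.0062 and 0.00731). The BMP target Dlx5, a homeobox gene of bone and skin appendages, fell 21.1-fold (edgeR adjusted p = 0.0137) and was 53.1-fold higher in TPK (0.00543). Smurf1, a ubiquitin ligase that acts on BMP Smads, fell 2.14-fold (edgeR adjusted p = 0.0477). In TPK, Runx2, the bone transcription factor, was 5.47-fold higher, Fst, the activin-binding follistatin, 10.3-fold, Twsg1, a chordin partner, 2.14-fold, Ltbp2, a matrix protein of the latent TGF-beta binding family, 5.27-fold, Pmepa1, a feedback target of TGF-beta, 4.52-fold, and Rgmb, a BMP co-receptor, 3.03-fold (edgeR adjusted p between 0.00655 and 0.0354). The ligands Gdf10 and Gdf11 were 14.9-fold and 7.70-fold lower in TPK, and Fkbp1a, which binds type I receptors, 3.26-fold lower (edgeR adjusted p = 0.0399, 0.0307 and 0.0226).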

How the data were processed

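RNA of 8 libraries was sequenced by the study as 150-base read pairs. The authors had the reads trimmed, aligned them to mm10 with STAR, and deposited whole-number counts for each gene symbol, which were used for every result. The counting tool, its annotation and its use of strand are not given in the sources used here. A deposited table of counts normalized with DESeq2 was not used. Models and replicates were taken from the sample labels, and the column headings call TPM by a longer name.

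Counts were scaled by TMM, filtered with filterByExpr and fitted in 1 edgeR 4.0.16 quasi-likelihood model of all 8 libraries (R 4.3.3, limma 3.58.1), with a term for the model, an adjusted p of 0.05 over 15875 genes and a common dispersion of 0.269. The script was tested on simulated data. With 2 libraries per model, p-values measure the spread between these libraries, and an exact permutation test could not reach 0.05. Levels per kilobase used the union of exons of GENCODE M21. All members were accounted for. Those that passed are given in every library, others by values where a library exceeded 20 CPM or models differed over 4-fold, and other pathway genes where they passed. The members and lists were chosen with earlier results of these data known. Alternatives were the Wald test of DESeq2 1.42.0, DESeq2 size factors, library size alone, other filters, only the models compared, a replicate block and leaving out each library. Results on some engineered genes are not reported here.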

Additional observations from a re-analysis of the deposited data

How the results depend on the processing

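No called member changed direction under 15 alternatives. The higher level of Id4 in TPK kept its call in 14 of them, the lower level of Smad9 in TPK and of Acvr1b against TPM in 13, Bmp7 in 11 in each comparison, Acvr1b in TPMR1 and in TPK in 9, and Id4 against TPM in 8. The DESeq2 Wald test called 7, 7, 6, 7, 1 and 5 members, in the order mean of TPMCa and TPMR1 against TPM, TPMCa against TPM, TPMR1 against TPM, TPK against that mean, TPK against TPM and TPMR1 against TPMCa, where the counts of the report were 3, 1, 1, 3, 0 and 0. Without a filter on low counts, 2 members passed between TPMR1 and TPM, beside 5.17% of all genes. In fits of only the models compared, 4 passed between TPMCa and TPM and 0 between TPMR1 and TPM, beside 8.35 and 0.353% of all genes. In them Id4 against TPM and Acvr1b in TPK also missed the threshold (edgeR adjusted p = 0.0724 and 0.0552). Leaving out each library in turn changed which members passed in every comparison but TPK against TPM. Over all 15 alternatives, the log2 fold change of Acvr1b lay between -2.67 and -2.12 for the mean of TPMCa and TPMR1 against TPM. That of Bmp7 lay between -4.88 and -4.8 for TPMCa against TPM. For TPK against the mean of TPMCa and TPMR1, that of Id4 lay between 5.14 and 6.84. A model left with 1 library was assumed to vary like the others, and such fits tested between 16656 and 16789 genes. The share of all genes called also changed from fit to fit.

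The replicate numbers of the labels did not pair the libraries, as deviations of libraries with the same number correlated at -0.07 to -0.01 between models. With a replicate block, 0 members passed between TPMR1 and TPM, beside 3.51% of all genes. Acvr1b had an edgeR adjusted p of 0.0534 there, and the other counts of members did not change. Depth limits Id4 in TPMCa and TPMR1 and Smad9 in TPM and TPK, which rest on 0 to 16 counts per library.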
